A study of Bos taurus with 8 samples.

Results

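The genes followed here are 10 that ERK signalling is known to switch on, measured in BUTE cells given progesterone or vehicle: the MAP kinase phosphatases DUSP4, DUSP5 and DUSP6, the sprouty genes SPRY1, SPRY2 and SPRY4, the sprouty-related genes SPRED1 and SPRED2, and the ETS transcription factors ETV4 and ETV5. They were picked by symbol rather than by a cut on measured values, though earlier results of these data were known. All 10 of them were found once each among the 28709 genes of the deposited table. All 10 passed the filter on low counts that left 13557 genes for testing. BUTE cells are immortalized uterine epithelial cells that trace back to a single Holstein cow, so every library comes from 1 cell line. The controls received DMSO and the treated cells 10 µM progesterone for 24 h. Both groups had first spent 24 h in medium free of serum, steroids and phenol red with insulin-like growth factor 1 (IGF1), and both kept IGF1 at 50 ng/ml during treatment, so neither group shows these genes without a growth factor. Each group had 4 libraries of poly(A) RNA, which keep the table's numbers: R1, R3, R7 and R9 for DMSO, and R1, R2, R3 and R6 for progesterone.

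Growth factor receptors such as the IGF1 and EGF receptors pass their signal through RAS, RAF and MEK to the ERK kinases. Active ERK raises transcription of genes whose products shut the pathway down again. DUSP proteins remove phosphates from ERK, sprouty and SPRED proteins act upstream near RAS and RAF, and ETV4 and ETV5 carry the signal on as transcription factors. For this reason the mRNA levels of these genes are widely read as a measure of ERK output, and the comparison of progesterone with DMSO is given here for that readout.

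Libraries held 23810841 to 32509792 estimated counts. A single library's count of a member lay between 119 (DUSP5) and 3594 (SPRED2), so counting error was smallest for SPRED2 and DUSP6. No label says that replicates were grown separately, and p-values therefore measure only the spread between these libraries, which may be technical. DMSO R7 and R9 stood apart from the other 6 libraries across many genes. They had 17625 and 17532 genes with a count, against 16545 to 16766 in the others. The fold change of each member and of the other tested genes named is given with and without R7 and R9. Exceptions are the cell type markers, given as levels, and the genes named only for their likeness to DUSP6. Of the epithelial markers, KRT8 was at 1348 to 2789 counts scaled to library size (CPM, counts per 1e6) and KRT19 at 255 to 706, while KRT18 reached at most 6.92, EPCAM 2.53 and CLDN4 0.102 CPM. The summed epithelial markers were at 2821 to 3073 CPM with DMSO and at 1739 to 2659 with progesterone, a difference carried by KRT8 (2481 ± 236 and 1740 ± 338.5). CDH1 overlapped (10.5 to 17.3 and 13.1 to 22.7), with a higher mean under progesterone. KRT7 was at 35.3 and 22.0 CPM in DMSO R1 and R3, 5.70 and 6.09 in R7 and R9, and 12.2 to 25.7 with progesterone. Its progesterone mean of 20.1 CPM was above the mean of all DMSO libraries (17.3) and below that of R1 and R3 (28.65). The 5 stromal fibroblast markers, all expressed, summed to 2923 and 3350 CPM in DMSO R3 and R1, to 6120 and 7353 in R9 and R7, and to 2374 to 2720 with progesterone. COL1A1 carried the sum, at 6553 and 5295 CPM in R7 and R9 against 1516 to 2046 in the other 6, whereas DCN was lowest in R7 and R9, at 268 and 281, against 522 to 963. The smooth muscle markers summed to 719 to 945 and 687 to 922. Immune markers summed to 5.37 to 13.2 CPM with DMSO and 8.88 to 13.9 with progesterone, most of it CD14, with PTPRC at 0 in all libraries, and endothelial markers to at most 5.87 CPM. The part of these marker differences in the results below was not tested; in bulk RNA, fewer cells of a type and less RNA per cell cannot be told apart.

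Between progesterone and DMSO, 0 of the 10 genes passed the threshold of 0.05 on the adjusted p of edgeR's quasi-likelihood test, corrected over all genes, where 2.65% of all genes tested did. The smallest edgeR adjusted p were 0.0704 for SPRY1, 0.0946 for SPRY2 and 0.0963 for SPRY4. An unadjusted p under 0.05 was found for 5 of the 10 (DUSP4, DUSP6, SPRY1, SPRY2 and SPRY4), against 26.8% of all genes, and 4 of these 5 had a positive log2 fold change. DESeq2 called 4 (DUSP4, SPRY2 and SPRY4 higher, SPRY1 lower), where it called 13.5% of all genes, and limma voom called 0 (277 of 13557 genes in all). The groups did not overlap for 3 members, against 16.2% of all genes: DUSP4 and SPRY2 were higher in every progesterone library (7.95% of all genes were) and SPRY1 was lower in every one (8.22%). The median log2 fold change was 0.05 over the members and -0.01 over all genes tested. Without DMSO R7 and R9, again none passed in edgeR (1.18% of all genes did), 3 had an unadjusted p under 0.05 (15.9%), 3 did not overlap (26.7%), and the median of the members was 0.17.

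**Figure D1:**
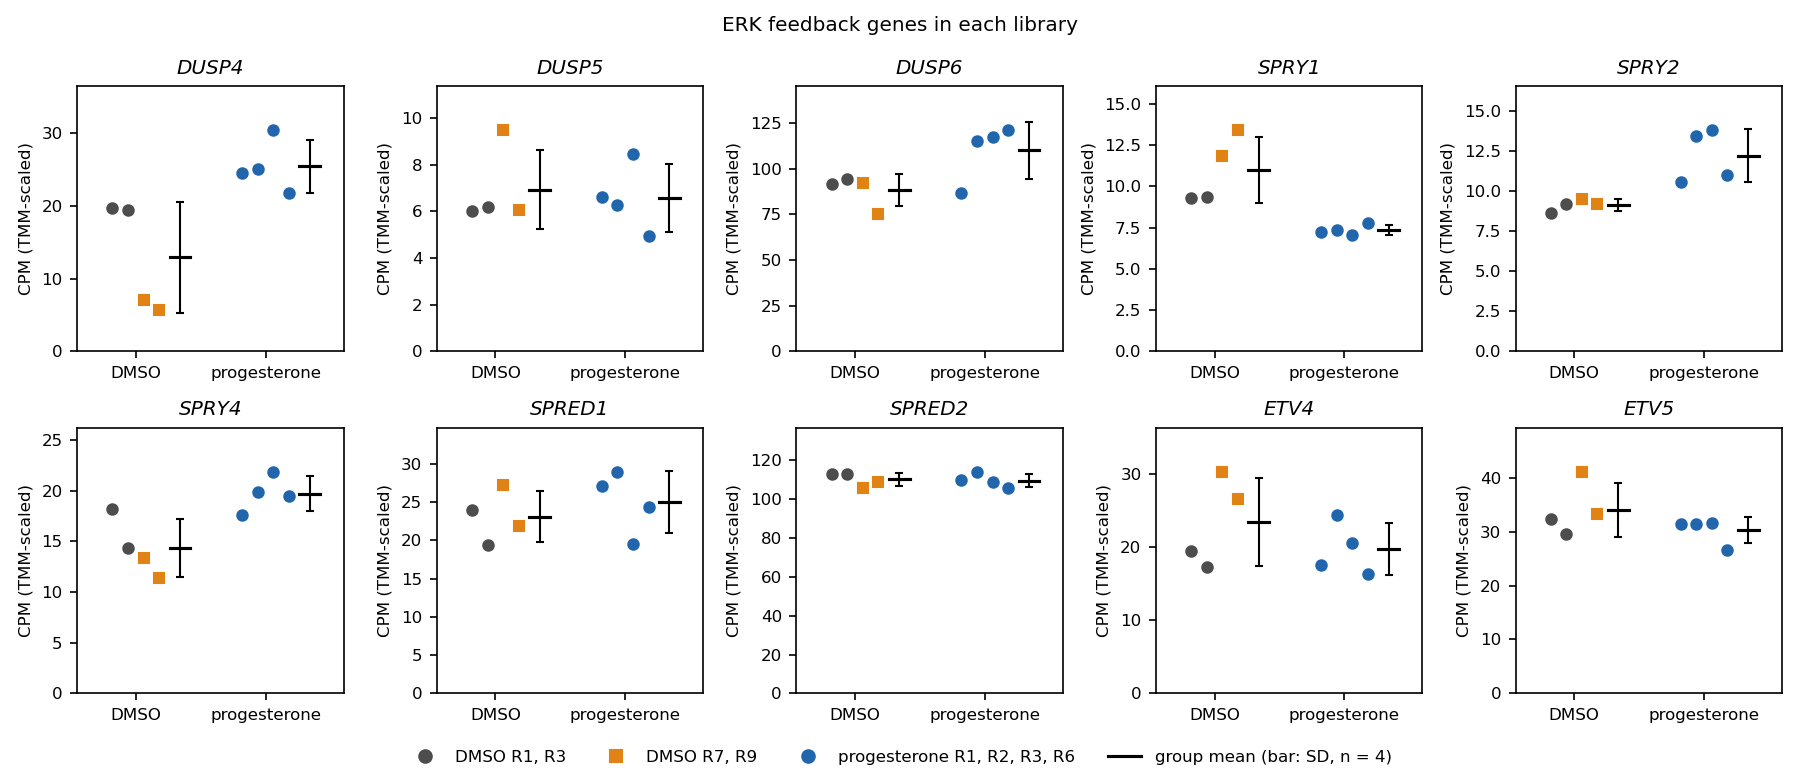
Level of each of the 10 genes in CPM (TMM-scaled, linear axis from 0) in the 4 DMSO and 4 progesterone libraries, with the group mean and SD. DUSP4 and SPRY2 lie higher in all 4 progesterone libraries and SPRY1 lower, while SPRED2 stays between 105 and 114 CPM in all 8.

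Of the 3 phosphatases, DUSP4 had the largest difference on the log2 scale, and the largest SE. DUSP4 (Entrez Gene 540380, chromosome 27), a nuclear phosphatase of ERK, was at 19.7, 19.4, 7.09 and 5.64 CPM in DMSO R1, R3, R7 and R9, and at 24.5, 25.1, 30.4 and 21.8 CPM in progesterone R1, R2, R3 and R6. All progesterone libraries lay above all DMSO libraries, but R7 and R9 lay far below R1 and R3, so the control group was split. The means were 13.0 ± 7.63 and 25.4 ± 3.62 CPM (SD, n = 4 each), a log2 fold change of 0.97 ± 0.39 (SE; 95% interval 0.08 to 1.87) with an edgeR adjusted p of 0.161. Without R7 and R9 it was 0.39 ± 0.13 (0.10 to 0.69, edgeR adjusted p = 0.182), so the fold went from 1.96 to 1.31.

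DUSP6 (515310, chromosome 5) encodes the cytosolic phosphatase that is specific to ERK and is among the most used of these readouts. Its levels were 91.8, 94.4, 91.9 and 75.2 CPM with DMSO and 86.9, 115, 117 and 121 CPM with progesterone. Progesterone R2, R3 and R6 were above all DMSO libraries, and progesterone R1 was below 3 of them. The log2 fold change was 0.32 ± 0.12 (SE; 95% interval 0.05 to 0.58, edgeR adjusted p = 0.130), and 0.25 ± 0.13 without R7 and R9 (-0.03 to 0.53, edgeR adjusted p = 0.363). DUSP5 (507061, chromosome 26), a nuclear phosphatase specific to ERK, was at 6.01, 6.17, 9.47 and 6.05 CPM with DMSO and at 6.60, 6.26, 8.46 and 4.92 CPM with progesterone. The groups overlapped, with the highest value in DMSO R7 and the lowest in progesterone R6. The log2 fold change of -0.08 ± 0.22 (-0.56 to 0.40, edgeR adjusted p = 0.841) became 0.12 ± 0.21 without R7 and R9.

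The sprouty genes, whose products hold back RAS and RAF activation by growth factor receptors, differed in sign. SPRY1 (507095, chromosome 17) was at 9.29, 9.36, 11.8 and 13.4 CPM with DMSO and at 7.21, 7.37, 7.06 and 7.78 CPM with progesterone. Every progesterone library was lower, and the 4 of them differed little from each other. The means of 11.0 ± 2.00 and 7.36 ± 0.308 CPM gave a level 1.49-fold lower with progesterone, a log2 fold change of -0.58 ± 0.15 (SE; 95% interval -0.92 to -0.24, edgeR adjusted p = 0.0704). R7 and R9 held the highest values, and without them the log2 fold change was -0.33 ± 0.14 (-0.64 to -0.01, edgeR adjusted p = 0.292). SPRY1 passed when DMSO R1 or DMSO R3 was left out (log2 fold changes of -0.65 and -0.64, edgeR adjusted p = 0.0347 and 0.0482), which leaves R7 and R9 as most of the control group. Many other genes passed there too: 1782 of 13700 without DMSO R1 and 795 of 13745 without DMSO R3, against 359 of 13557 with all libraries.

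SPRY2 (539090, chromosome 12) had the opposite sign and hardly depended on these 2 libraries. Its levels were 8.64, 9.18, 9.54 and 9.19 CPM with DMSO and 10.6, 13.4, 13.8 and 11.0 CPM with progesterone. All 4 DMSO libraries were alike, R7 and R9 included, and all 4 progesterone libraries were higher. The log2 fold change was 0.42 ± 0.13 (SE; 95% interval 0.12 to 0.71, edgeR adjusted p = 0.0946) and 0.47 ± 0.16 without R7 and R9 (0.12 to 0.81, edgeR adjusted p = 0.182).

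SPRY4 (504593, chromosome 7) was at 18.2, 14.4, 13.4 and 11.4 CPM with DMSO and at 17.6, 19.9, 21.8 and 19.4 CPM with progesterone. DMSO R1 lay above progesterone R1, the only overlap. The log2 fold change was 0.46 ± 0.15 (SE; 95% interval 0.13 to 0.78, edgeR adjusted p = 0.0963), 0.29 ± 0.14 without R7 and R9 (-0.01 to 0.59, edgeR adjusted p = 0.336) and 0.59 without DMSO R1, where it passed (edgeR adjusted p = 0.0273). Without DMSO R1, 1782 of 13700 genes passed.

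SPRED1 and SPRED2 bind RAS regulators at the membrane and restrain the activation of RAF. SPRED2 (519081, chromosome 11) was the steadiest of the 10 genes, at 113, 113, 106 and 109 CPM with DMSO and at 109.8, 114, 109 and 105 CPM with progesterone. Its log2 fold change of -0.01 ± 0.07 had a 95% interval of -0.16 to 0.14 (edgeR adjusted p = 0.957), and -0.20 to 0.15 without R7 and R9. SPRED1 (519882, chromosome 10) was at 23.9, 19.4, 27.2 and 21.9 CPM and at 27.1, 28.9, 19.6 and 24.4 CPM, and the groups overlapped. Its log2 fold change was 0.11 ± 0.15 (-0.21 to 0.43, edgeR adjusted p = 0.641) and 0.22 ± 0.16 without R7 and R9.

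ETV4 and ETV5 belong with ETV1 to the PEA3 group of ETS factors, which bind the same kind of DNA site. ETV4 (533129, chromosome 19) was at 19.5, 17.3, 30.2 and 26.6 CPM with DMSO and at 17.5, 24.3, 20.6 and 16.4 CPM with progesterone. R7 and R9 were above all other libraries, and the rest of the values overlapped. The log2 fold change was -0.25 ± 0.19 (SE; 95% interval -0.67 to 0.18, edgeR adjusted p = 0.421), and 0.11 ± 0.16 without R7 and R9 (-0.24 to 0.46). ETV5 (541166, chromosome 1) was at 32.3, 29.5, 41.0 and 33.3 CPM with DMSO and at 31.5, 31.5, 31.6 and 26.6 CPM with progesterone. Its log2 fold change was -0.17 ± 0.12 (-0.43 to 0.09, edgeR adjusted p = 0.374) and -0.01 ± 0.11 without R7 and R9 (-0.25 to 0.22).

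ETV1 (540846, chromosome 4), the remaining gene of this group, fell. It was at 33.1, 32.7, 49.9 and 44.8 CPM with DMSO and at 18.1, 19.2, 17.1 and 17.2 CPM with progesterone. The progesterone libraries were close together and all far below the lowest DMSO library. The means of 40.1 ± 8.61 and 17.9 ± 0.995 CPM were 2.24-fold apart, a log2 fold change of -1.16 ± 0.15 (SE; 95% interval -1.49 to -0.84, edgeR adjusted p = 0.00784). Without R7 and R9 it was -0.86 ± 0.10 (edgeR adjusted p = 0.00445), and in 20 alternative settings it lay between -1.25 and -0.86 with adjusted p of at most 0.0405.

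**Figure D2:**
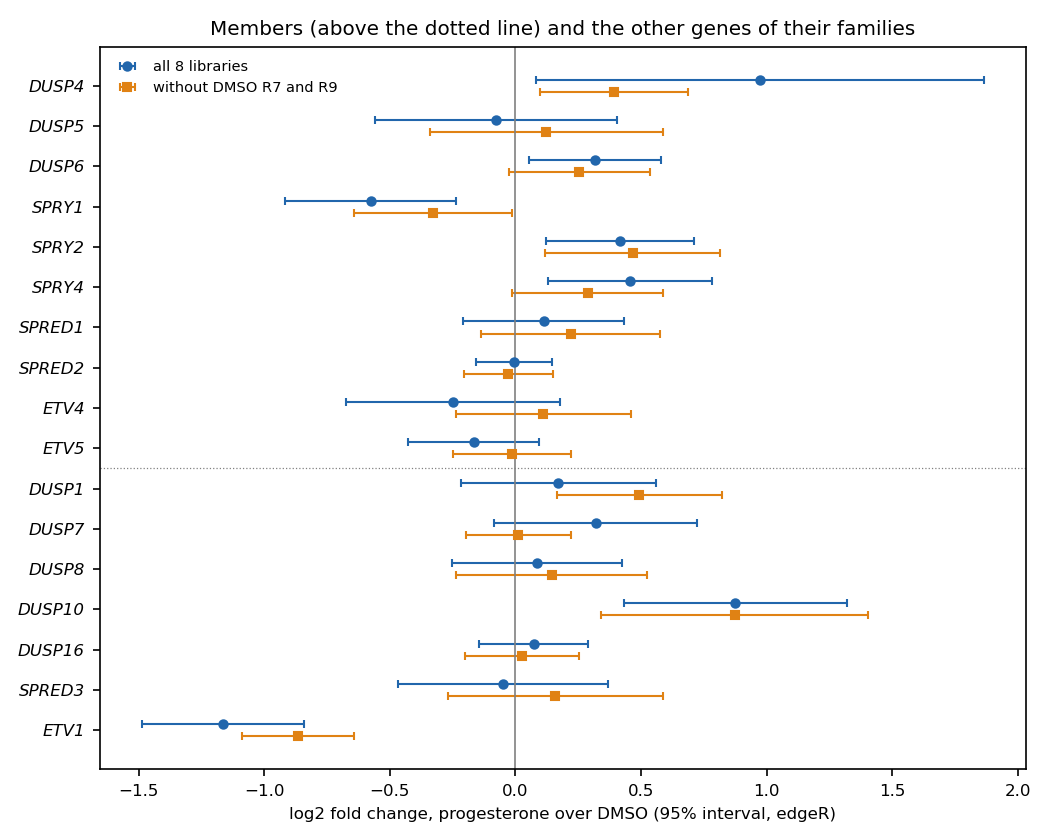
Log2 fold change of progesterone over DMSO with its 95% interval from edgeR, for the 10 members (above the dotted line) and for the other tested genes of the MAP kinase phosphatase, SPRED and PEA3 families (below it), with all 8 libraries and without DMSO R7 and R9. DUSP4 shrinks from 0.97 to 0.39 without these libraries, SPRY2 moves from 0.42 to 0.47, and ETV1 stays lowest at -1.16 and -0.86.

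Ratios of 2 genes within a library do not depend on how libraries are scaled. The pairs shown were chosen after the values were seen, so they are given without a test, and a ratio of counts says nothing of which gene is more abundant, since transcript lengths differ. The ratio of SPRY2 to SPRY1 counts was 0.930, 0.981, 0.805 and 0.686 in DMSO R1, R3, R7 and R9 and 1.47, 1.82, 1.95 and 1.42 in progesterone R1, R2, R3 and R6, without overlap. The ratio of SPRY4 to SPRY1 was 0.855 to 1.96 with DMSO and 2.44 to 3.09 with progesterone, also without overlap, whereas SPRY2 to SPRY4 was 0.474 to 0.803 and 0.567 to 0.675, with progesterone inside the DMSO range. Relative to SPRY1, both of the other sprouty genes were higher in all 4 progesterone libraries. SPRY2 was itself higher and SPRY1 lower in every one, so their ratio could not overlap and is no separate evidence. The share of all gene pairs whose ratio does not overlap was not counted.

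The ratio of ETV1 to ETV4 was 1.70, 1.88, 1.65 and 1.68 with DMSO and 1.03, 0.790, 0.830 and 1.05 with progesterone. Here R7 and R9 did not stand apart from R1 and R3, although both genes were higher in them. ETV1 to ETV5 was 1.03 to 1.35 with DMSO and 0.540 to 0.646 with progesterone. The lower level of ETV1 enters both ratios, so they are no separate evidence. ETV4 to ETV5 overlapped, at 0.588 to 0.800 and 0.557 to 0.774. Among the phosphatases, DUSP4 to DUSP6 was 0.214 and 0.205 in DMSO R1 and R3, 0.0771 and 0.0748 in R7 and R9, and 0.180 to 0.282 with progesterone, so that R1 and R3 lay inside the progesterone range. SPRED1 to SPRED2 was 0.172 to 0.257 and 0.180 to 0.254.

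**Figure D3:**
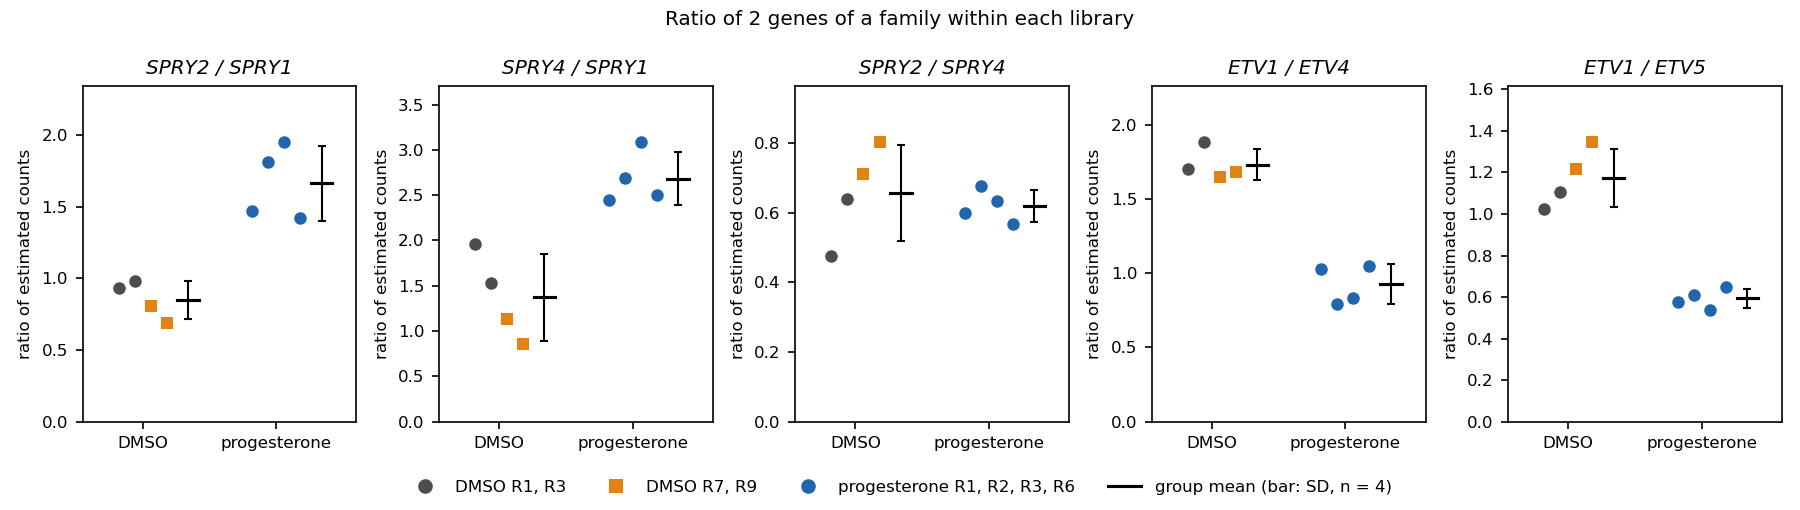
Ratio of the estimated counts of 2 genes of a family within each library (linear axis from 0), with the group mean and SD. SPRY2/SPRY1 and SPRY4/SPRY1 are higher and ETV1/ETV4 and ETV1/ETV5 lower in all 4 progesterone libraries, and SPRY2/SPRY4 overlaps between the groups.

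Across libraries the members did not form 1 pattern. DMSO R7 and R9 differed from R1 and R3 in both directions: taking the mean of each pair, DUSP4 was at 6.36 against 19.5 CPM and SPRY4 at 12.4 against 16.3, while ETV4 was at 28.4 against 18.4, ETV5 at 37.2 against 30.9 and SPRY1 at 12.6 against 9.32. Of the 10 members, the number above their own 8-library mean ranged from 3 (DMSO R3 and R9) to 7 (progesterone R2). Over the 8 libraries, the Pearson correlation of log2 CPM between 2 members was positive for 22 of 45 pairs with a median of -0.03, from -0.96 (DUSP4 with SPRY1) to 0.91 (DUSP4 with SPRY4). Over the 6 libraries other than R7 and R9, the correlation was positive for 29 of 45 pairs with a median of 0.21. The highest were DUSP4 with SPRY2 (0.90), SPRY4 with DUSP4 (0.76) and SPRY2 with SPRY4 (0.76), and the lowest were SPRY1 with DUSP4 (-0.89) and with SPRY2 (-0.86). These 6 libraries are 2 DMSO and 4 progesterone libraries, so a difference between the groups, and the scaling that all genes of a library share, enter each of these values. Over the 6 libraries ETV4 and ETV5 correlated at 0.63 and DUSP6 with SPRY2 at 0.73.

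**Figure D4:**
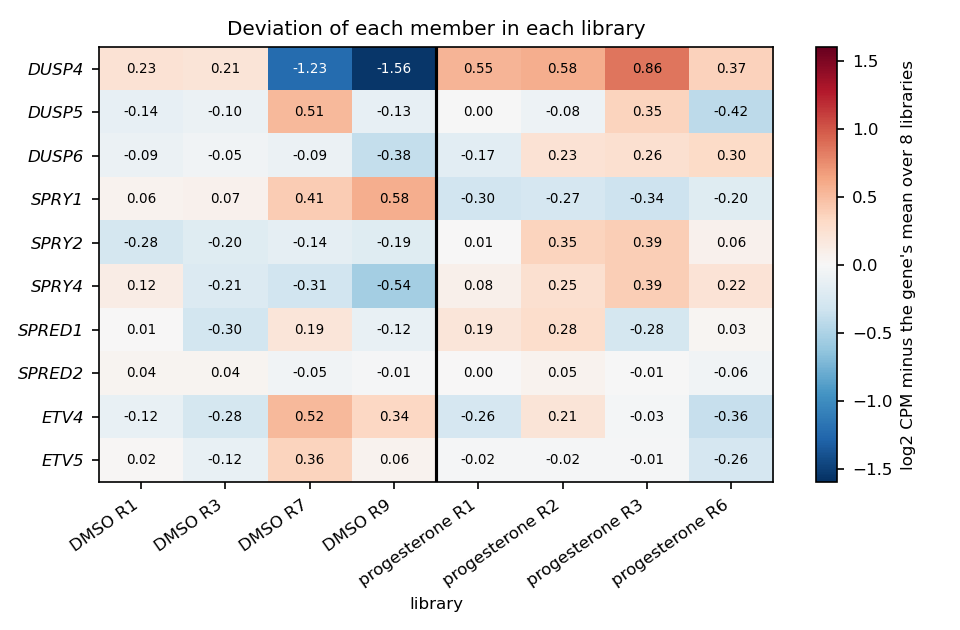
Log2 CPM of each member in each library minus its mean over the 8 libraries (colour and printed value, the black line divides DMSO from progesterone). DUSP4 is lowest in DMSO R7 and R9 (-1.23 and -1.56), SPRY1 is below its mean in all 4 progesterone libraries, and SPRED2 stays within 0.06 of its mean.

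The genes whose levels followed DUSP6 most closely over the 8 libraries were OAZ1, an inhibitor of polyamine synthesis (Pearson r = 0.98), the ribosomal protein gene RPS28 (0.96), ATP5MPL, a small subunit of the ATP synthase (0.96), and the complex I subunits NDUFC2 (0.96) and NDUFB3 (0.96). Over the 6 libraries without R7 and R9 these values were 0.92 to 0.98. These 6 are part of the 8 on which the genes were picked for a high r, so this is no separate check. Of the members, SPRY4 came nearest to DUSP6 with 0.82 over the 8 libraries, ranking 357 among 13556 genes, followed by SPRY2 (0.75, rank 800) and DUSP4 (0.70, rank 1311). SPRY1 was at -0.73.

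The other MAP kinase phosphatases include enzymes that prefer the stress kinases JNK and p38. Of 7 listed, 5 were tested, 1 rose and 4 did not pass, where 2.65% of all genes tested passed. DUSP9 was at 0 counts in all libraries and DUSP2 reached 4. DUSP10 (541175, chromosome 16), a phosphatase of JNK and p38, was at 4.13, 5.73, 4.89 and 4.73 CPM with DMSO and at 8.62, 8.01, 12.2 and 6.95 CPM with progesterone. It rose 1.84-fold (0.88 ± 0.20 on the log2 scale, edgeR adjusted p = 0.0497). The call is at the threshold and was lost in 11 of 20 alternative settings. With R7 and R9 left out it was at 0.87 on the log2 scale with an edgeR adjusted p of 0.112, and voom gave an adjusted p of 0.0563. Leaving out DMSO R7, DMSO R9 or any of the 4 progesterone libraries ended it, with log2 fold changes of 0.69 to 0.98. Leaving out 1 of these libraries also took the count of all genes that passed from 359 to between 42 and 82. DUSP1 (539175, chromosome 20), an early-induced phosphatase of all 3 kinase classes that glucocorticoids are known to raise, was at 153, 178, 253 and 236 CPM with DMSO and at 197, 202, 283 and 239 CPM with progesterone. Its log2 fold change was 0.17 ± 0.17 with all libraries (edgeR adjusted p = 0.550) and 0.49 ± 0.15 without R7 and R9 (0.144). In that setting its groups no longer overlapped, nor did those of 26.7% of all genes. DUSP7, DUSP8 and DUSP16 had log2 fold changes of 0.32, 0.09 and 0.07 with edgeR adjusted p between 0.283 and 0.742, and 0.01, 0.14 and 0.03 without R7 and R9. SPRED3 was at -0.05 ± 0.19 (0.884) and at 0.16 without R7 and R9, and SPRY3 reached only 2 counts.

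Upstream of the members, of 20 growth factor ligands 13 were tested and none passed in edgeR. Unadjusted, 5 of the 13 had a p under 0.05, against 26.8% of all genes. DESeq2 called 3 (FGF18 higher, FGF1 and HBEGF lower), against 13.5% of all genes, and voom called 0. IGF1 itself was at 0 counts in all libraries and EGF reached 1, so IGF1 mRNA was not detected in cells that were given the protein. FGF18 was at 5.17 ± 2.18 CPM with DMSO and 11.5 ± 2.53 with progesterone (a log2 fold change of 1.15 ± 0.29, edgeR adjusted p = 0.0634). FGF1 was at 0.918 ± 0.220 and 0.342 ± 0.117 CPM (-1.42 ± 0.36, 0.0640), and HBEGF, a ligand of the EGF receptor, at 4.01 ± 0.815 and 2.43 ± 0.601 CPM (-0.72 ± 0.24, 0.104). Without R7 and R9, FGF18 was at 0.72 (edgeR adjusted p = 0.108), FGF1 at -1.25 (0.215) and HBEGF at -0.51 (0.368). FGF18 passed without DMSO R1 (edgeR adjusted p = 0.0330) and without DMSO R3 (0.0387), and FGF1 without DMSO R1 (0.0316), settings in which R7 and R9 stay in. In all, 1782 genes passed without DMSO R1 and 795 without DMSO R3, against 359 with all libraries.

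Of 16 receptors and receptor substrates, 14 were tested and none passed in edgeR. An unadjusted p under 0.05 was found for 5, against 26.8% of all genes. DESeq2 called 2 (IRS2 and EGFR, both higher), against 13.5% of all genes. Voom called 1 (IRS2, higher), and 277 of 13557 genes in all. The receptor of the supplied ligand, IGF1R (281848, chromosome 21), was at 204, 211, 196 and 183 CPM with DMSO and at 232, 229, 269 and 219 CPM with progesterone, higher in every progesterone library. Its log2 fold change was 0.26 ± 0.09 (SE; 95% interval 0.06 to 0.46, edgeR adjusted p = 0.114), and 0.21 without R7 and R9 (0.344). EGFR (407217, chromosome 22) was also higher in all 4, at 109.6 ± 17.8 and 145 ± 8.35 CPM (0.41 ± 0.11, edgeR adjusted p = 0.0737), passed without DMSO R1 (0.0182), and was at 0.25 without R7 and R9. IRS2 (100300012, chromosome 12), which links the IGF1 and insulin receptors to PI3 kinase, was at 15.8, 12.4, 8.65 and 5.86 CPM with DMSO and at 26.7, 21.5, 25.7 and 20.5 CPM with progesterone. No library overlapped, and its log2 fold change of 1.14 ± 0.26 missed the threshold with all libraries (edgeR adjusted p = 0.0514). It passed without R7 and R9 at 0.76 ± 0.15 (0.0444), and also without DMSO R1 (edgeR adjusted p = 0.0131) and without DMSO R3 (0.0492). Of all genes, 162 passed without R7 and R9, 1782 without DMSO R1 and 795 without DMSO R3.

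Of 20 genes of the RAS to ERK cascade, all tested, 1 rose and 19 did not pass, where 2.65% of all genes passed. The median log2 fold change of the 20 was 0.08. DESeq2 called 2 (ARAF higher and KSR1 lower), against 13.5% of all genes. Voom called 1 (ARAF, higher), and 277 of 13557 genes in all. ARAF (540421, chromosome X), one of the RAF kinases, was at 81.7, 79.1, 81.8 and 78.3 CPM with DMSO and at 106, 104, 101 and 101 CPM with progesterone. The libraries of each group were nearly equal, R7 and R9 included, and it rose 1.28-fold (0.36 ± 0.07, edgeR adjusted p = 0.0303). Without R7 and R9 the change was 0.37 with an edgeR adjusted p of 0.0611, and leaving out R7, R9 or any 1 progesterone library gave adjusted p of 0.0717 to 0.0970 with log2 fold changes of 0.35 to 0.37. With 1 of these libraries left out, only 42 to 82 genes in all passed. KSR1, a scaffold for RAF, MEK and ERK, was at 19.6 ± 3.25 and 13.6 ± 1.26 CPM, without overlap (-0.53 ± 0.14, edgeR adjusted p = 0.0692). It was at -0.29 without R7 and R9, and passed without DMSO R1 (0.0341) and without DMSO R3 (0.0440), where 1782 and 795 genes in all passed. MAPK3, which encodes an ERK kinase, did not pass (log2 fold change 0.31 ± 0.12, edgeR adjusted p = 0.141) and was at 0.13 without R7 and R9.

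Of 14 other brakes on receptors and RAS, all tested, 1 rose and 13 did not pass, where 2.65% of all genes passed. The median log2 fold change of the 14 was -0.01, and 0.12 without R7 and R9, where the lowest was 0.03. Over all genes tested these medians were -0.01 and 0.01. ERRFI1 (516303, chromosome 16), which encodes the EGF receptor inhibitor MIG6, was at 40.6, 50.0, 54.9 and 44.3 CPM with DMSO and at 69.6, 64.3, 99.7 and 67.8 CPM with progesterone. Every progesterone library was higher, with R3 far above the others. It rose 1.59-fold (0.67 ± 0.15, edgeR adjusted p = 0.0489). Without R7 and R9 it was at 0.75 with an edgeR adjusted p of 0.0809, and voom gave an adjusted p of 0.0551. Leaving out DMSO R7, DMSO R9 or any 1 progesterone library ended the call at 0.50 to 0.75 on the log2 scale. Only 42 to 82 genes in all passed with 1 of these libraries left out. PEBP1, which binds RAF, and LZTR1, an adaptor for RAS degradation, had log2 fold changes of 0.28 ± 0.12 and 0.17 ± 0.09. Neither passed, and with R7 and R9 left out they were at 0.12 and 0.16.

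Of 16 other genes commonly induced by ERK, all tested, none passed in edgeR. An unadjusted p under 0.05 was reached by 5, against 26.8% of all genes. DESeq2 called 5 (2 higher and 3 lower), against 13.5% of all genes, and voom called 0. The median log2 fold change of the 16 was -0.22, and -0.05 without R7 and R9. The smallest p were those of PHLDA1, a growth factor-induced gene, at 48.7 ± 15.6 and 31.0 ± 3.07 CPM (-0.65 ± 0.20, edgeR adjusted p = 0.0884), the AP-1 subunit FOSL1, at 128 ± 23.7 and 84.3 ± 24.7 CPM (-0.60 ± 0.20, 0.109), and MCL1, an inhibitor of apoptosis, at 206 ± 16.7 and 245 ± 14.0 CPM (0.25 ± 0.09, 0.110). Without R7 and R9 these log2 fold changes were -0.21, -0.42 and 0.34. PHLDA1 and FOSL1 passed without DMSO R1 (edgeR adjusted p = 0.0254 and 0.0430), as did 1782 of 13700 genes in all.

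**Figure D5:**
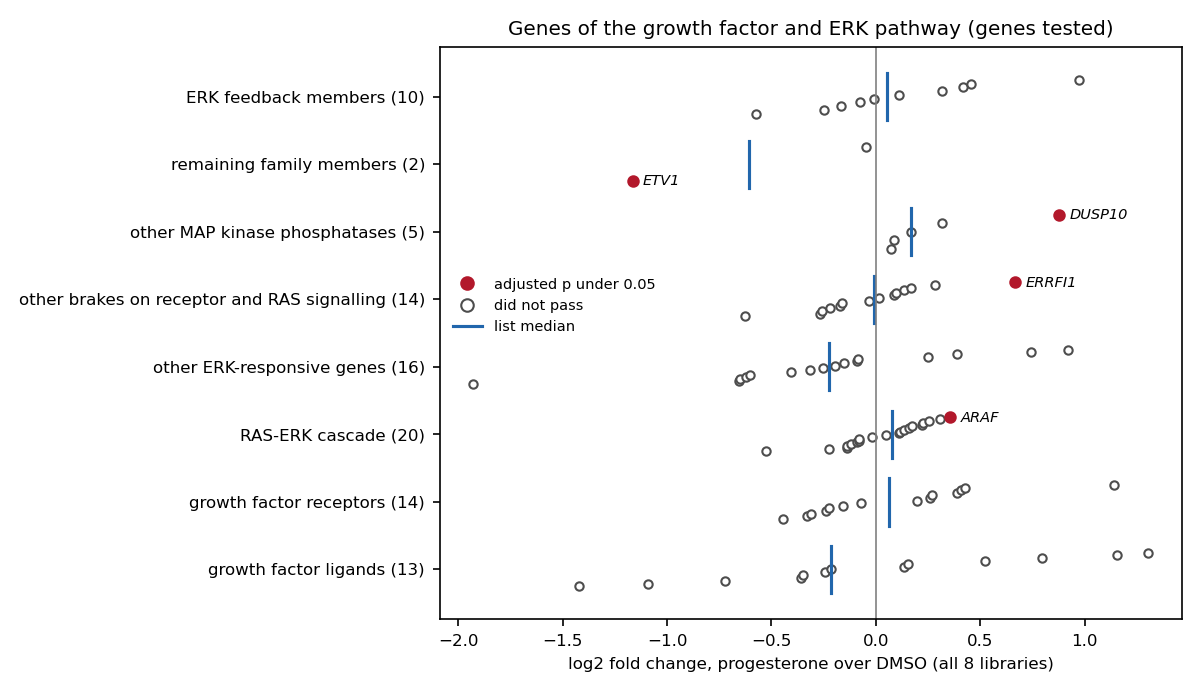
Log2 fold change with all 8 libraries for every tested gene of the ligand, receptor, cascade, target and inhibitor lists (open circles did not pass, filled red circles had an adjusted p under 0.05, blue lines are list medians). Of these genes, ETV1, DUSP10, ERRFI1 and ARAF passed, and none of the 10 members did.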

How the data were processed

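The deposited table holds estimated counts per gene for 8 libraries. Per the submitters' processing notes, Salmon 1.4.0, bcl2fastq and build ARS-UCD1.2 were used, without a stated order. It is called length-normalized by the authors, which the column totals neither show nor exclude. Libraries were stranded, per the labels' protocols. Column names give the group but match no sample's replicate number.

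Estimated counts were rounded, filtered with edgeR's filterByExpr, scaled by TMM and tested with edgeR 4.0.16 (quasi-likelihood, robust, two-sided, group as the only term, R 4.3.3), with Benjamini-Hochberg adjustment over all genes and a threshold of 0.05. Standard errors are the log2 fold change divided by the square root of F, and 95% intervals use the t distribution. CPM are TMM-scaled. Deviations and correlations use log2 CPM with a prior count of 2. Replicates differed beyond sampling noise. The chi-square per degree of freedom was 99.7 to 129 for pairs of DMSO R1 or R3 with R7 or R9, and 14.2 to 36.6 for all other pairs within a group.

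The members, the 7 other pathway lists, the naming rule and the alternatives were all chosen with earlier results of these data known. Named genes are the members, the tested genes of their families, in every other list the genes that passed with all libraries or without DMSO R7 and R9 (made up to 3 by smallest p), IGF1R, EGFR and MAPK3, and the 5 genes most like DUSP6; 1 further gene that the rule names is not reported here. Alternatives were 3 other scalings, 2 other filters, DESeq2 1.42.0, limma 3.58.1 with voom, a threshold of 0.01, non-robust estimation, unrounded counts, a term for DMSO R7 and R9, leaving out these 2 or each library, and the column number as a block. Promoter sequences were not used here.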

Additional observations from a re-analysis of the deposited data

Results flagged for a closer look

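Of 66 groups of 4 libraries examined (33 named genes in 2 conditions), 4 held 1 library whose gap to its neighbour took up most of the group's range; chance alone marks about 1 group in 20. DUSP5 in DMSO R7 was at 9.47 CPM, against 6.01 to 6.17 in the other 3. DUSP6 in DMSO R9 was at 75.2 CPM, against 91.8 to 94.4. ETV5 in progesterone R6 was at 26.6 CPM, against 31.5 to 31.6, and ERRFI1 in progesterone R3 was at 99.7 CPM, against 64.3 to 69.6. Without these libraries the log2 fold change was 0.11 for DUSP5 (no DMSO R7), 0.25 for DUSP6 (no DMSO R9), -0.11 for ETV5 (no progesterone R6) and 0.50 for ERRFI1 (no progesterone R3).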

How the results depend on the processing

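No member passed under 3 other scalings, 2 other filters, voom, unrounded counts, no robust estimation or a term for DMSO R7 and R9. DESeq2 called 4 members, and 1830 genes in all against 359 in edgeR. The count of all genes was 162 without DMSO R7 and R9 and 27 at a threshold of 0.01. With 1 library left out it was 42 to 1782, and each of the 8 moved it by over 1.5 times. It was 1782 without DMSO R1, 795 without DMSO R3 and 42 to 82 without any other library. With 1 library left out, 0 to 2 members passed and 3 to 5 did not overlap (5 without progesterone R1). Of all genes, 17.5 to 25.5% did not overlap in these settings (21.1% without progesterone R1). With the column number as a replicate block, 2 members (DUSP4 and SPRY2, both higher) and 2531 genes passed. Columns share only the numbers R1 and R3, which match no label, so this fit rests on 2 pairs and 1 residual degree of freedom (deviations of same-numbered libraries correlated at 0.23 and 0.21, others at -0.01 and -0.07). No named gene that passed or had an unadjusted p under 0.05 with all libraries changed sign; 7 others did, among them ETV4 (-0.25 with all libraries) and DUSP7 (0.32): without R7 and R9, with a term for them and with the block, DUSP5 was at 0.12, 0.11 and 0.30, ETV4 at 0.11, 0.10 and 0.0466 and SPRED3 at 0.16, 0.15 and 0.0467. ETV5 was at 0.0313 with the block, SPRED2 at 0.0203 without a filter and DUSP7 at -0.001 with the term. With 1 library left out, DUSP5 ranged from -0.22 to 0.11, SPRED2 from -0.0251 to 0.0125, SPRED3 from -0.14 to 0.0839 and DUSP8 from -0.0018 to 0.21. The cause was not tested. DUSP4, DUSP6, SPRY1, SPRY2, SPRY4 and SPRED1 kept their direction in all 20 alternatives. With 4 libraries a group, the 95% interval of a member's log2 fold change ran from -0.16 to 0.14 for SPRED2, the narrowest, and from 0.08 to 1.87 for DUSP4, the widest.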
